A study of Mus musculus with 4 samples.

Results

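The comparison set brain RNA of sham-operated mice at 24 h after an injection of saline against brain RNA of sham-operated mice at 6 h. Its members are the sham channels of the study's 2-colour arrays, which are 4 of the 8 RNA channels in the series. On sample 1 of each time the sham RNA carried Cy3, and on sample 2 it carried Cy5, so each time holds both dyes. The opposite channel of every array carried RNA of a PMCAO group, in which the middle cerebral artery was permanently blocked as a model of ischemic stroke. All mice were male C57BL/6J, 8 to 12 weeks old, kept under a 12 h light and dark cycle and given saline into the cerebral ventricle. Sham mice were anaesthetised with isoflurane at 4% and then 2%, and the neck was opened to expose the carotid artery before the wound was sutured. PMCAO mice had in addition a nylon filament passed into the middle cerebral artery and left there. Each group held 3 mice, and how their RNA was combined is not given in the sources used here. The labels name the tissue as brain, and the design text says that the arrays were run on the hemisphere opposite the occluded side.

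The question is whether sham itself moved between the times, since a change in sham enters every PMCAO over sham ratio of the study. Surgery and anaesthesia raise corticosterone, the main glucocorticoid of mice, which enters cells and acts through a receptor that binds DNA and switches genes on and off. Handling, injection and neuronal firing induce immediate early genes, a class of fast and short-lived transcripts that are switched on without new protein synthesis, in part through the factor CREB, which binds the cAMP response element. No group of unoperated mice is part of this comparison, so both times lie after surgery. The hour of day at which brains were taken is not given in the sources used here, so the time since surgery and the time of day cannot be told apart.

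The sham channels had 67.3% and 70.5% of gene spots well above background at 6 h and 70.6% and 73.6% at 24 h, as marked by the scanner software. Outlier flags covered 112 to 142 spots per array and 0 to 2 spots were saturated. All 4 arrays lay on 1 slide. The labels do not say whether sample 1 and sample 2 of a time hold separate RNA. P-values measure the spread within the 4 groups, pooled over all 8 channels with those of PMCAO included. Each group holds 1 Cy3 and 1 Cy5 channel and this fit has no term for dye. The spread is therefore the difference between the dyes together with any difference between sample 1 and sample 2. Over genes the Cy5 minus Cy3 differences of sham at 6 h and 24 h correlated at 0.457. All of this spread may be technical. Levels are normalised log2 intensity of a gene's brightest probe, and a level of 1 gene is not set against that of another. A difference is the 24 h mean minus the 6 h mean on that scale, given with the standard error of the model and n = 2 channels per time. Adjusted p-values are those of limma's moderated test after Benjamini-Hochberg adjustment over all 18938 genes tested, and a gene is said to have risen or fallen where this value was below 0.05. Brain markers were present as the label says, since 12 of 12 neuronal, 10 of 10 astrocyte, 10 of 10 mature oligodendrocyte and 10 of 10 microglial markers were bright enough to be tested.

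Sham RNA differed between the times in a small share of genes. At 24 h 373 genes were higher, which is 1.97% of those tested, and 345 genes were lower, which is 1.82%. These shares are the background for every list count below. Most of these changes were small, since 18 of the higher genes and 15 of the lower genes reached 2-fold, while 106 and 89 reached 1.5-fold. The median difference of all tested genes was -0.009. Every one of the 718 genes moved the same way in the Cy3 pair and in the Cy5 pair of channels. The test itself favours this, since dye pairs that disagree widen the spread, so the agreement is no separate support. Over all tested genes the Cy3 and the Cy5 differences correlated at 0.59. Of the 718 genes, 633 also passed in a fit with a term for dye. A further 96 genes differed by over 2-fold in at least 1 of the dyes and did not pass. The count depended on the 6 h arrays, because leaving out the array with sham in Cy3 left 34 higher and 69 lower genes, and leaving out the array with sham in Cy5 left 33 and 72. A fit of the sham channels alone called 19 and 28, and 961 and 1003 with a dye term.

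**Figure D1:**
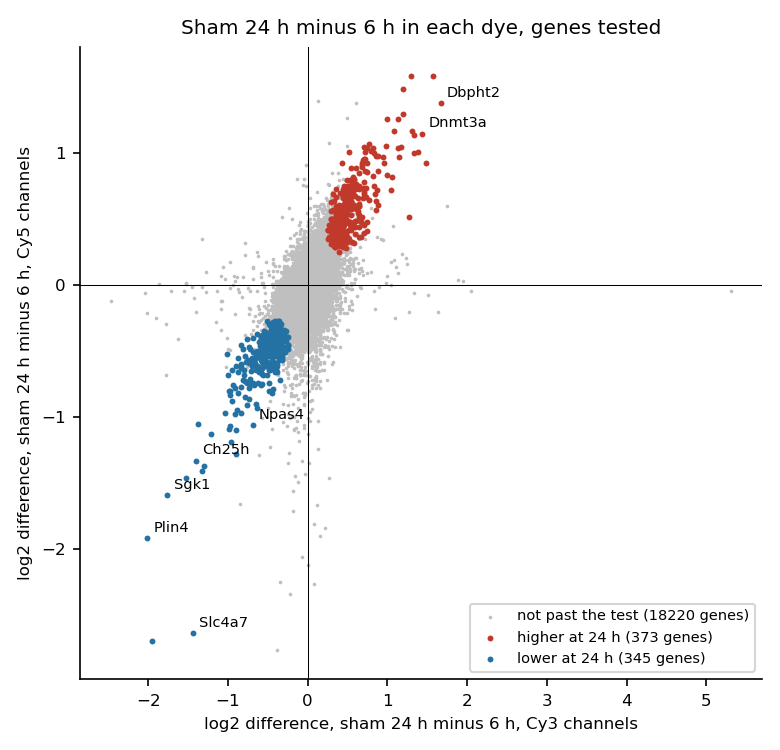
Each point is 1 of the 18938 genes tested, with its log2 difference between 24 h and 6 h sham in the Cy3 channels on the x axis and in the Cy5 channels on the y axis. The 373 higher genes (red) all lie at the upper right and the 345 lower genes (blue) all lie at the lower left, with Plin4, Sgk1 and Slc4a7 among the lowest, while points far out along 1 axis only are genes that differed in 1 dye.

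Genes that glucocorticoids induce had the lowest median of the 36 gene lists examined, except with no normalisation between arrays, where lymphocyte markers at -0.40 and neutrophil and monocyte markers at -0.39 lay below their -0.31. Of 19 list members tested, 11 fell and none rose, against 1.82% of all genes called lower, and the median difference over the 19 was -0.52 against -0.009 over all tested genes. All 19 values were below 0, and in 15 of them both 24 h channels lay below both 6 h channels, an order that 25.1% of all tested genes showed. The list shares 10 of its genes with other lists used here. The members that fell were Plin4, Sgk1, Mt1, Ddit4, Cdkn1a, Nfkbia, Tsc22d3, Sult1a1, Angptl4, Dusp1 and Map3k6. With either 6 h array left out 2 of them passed, and 2 passed in the fit of the sham channels alone.

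Plin4 encodes perilipin 4, a coat protein of lipid droplets. Its probe lies at chr17:54259939-54259998 in the mm7 coordinates of the array files. It read 12.50 and 12.46 at 6 h and 10.50 and 10.54 at 24 h, Cy3 first in each pair. The channels of a time differed by far less than the times did, and the difference of -1.96 ± 0.07 (SE), which is 3.9-fold, had an adjusted p of 3.14e-05. Sgk1, the serum- and glucocorticoid-regulated kinase that acts on ion channels and transporters, was measured at chr10:21732425-21732484 (mm7). It read 14.71 and 14.73 at 6 h and 12.95 and 13.14 at 24 h. This difference of -1.68 ± 0.09 was 3.2-fold, with an adjusted p of 0.00037. Both genes passed in every one of the 12 alternatives that called any gene. In PMCAO channels the same difference was 0.15 ± 0.07 for Plin4 and -0.21 ± 0.09 for Sgk1, neither of which passed, and the sham change lay below the PMCAO change with adjusted p-values of 0.000244 and 0.00311.

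The other 9 members that fell did so by less than 2-fold. Mt1, a metallothionein that binds zinc and copper, read 15.23 and 15.38 at 6 h and 14.29 and 14.73 at 24 h, a difference of -0.79 ± 0.15 (adjusted p = 0.0292). Its near copy Mt2 read 16.09 and 16.66 at 6 h and 14.32 and 15.99 at 24 h, and with its channels that far apart it did not pass (-1.22 ± 0.53, adjusted p = 0.235). Signals of such close copies may mix on an array. Ddit4, a stress-induced inhibitor of the growth kinase mTORC1, was at 15.11 and 15.28 and then at 14.30 and 14.56 (-0.77 ± 0.13, adjusted p = 0.0239). Cdkn1a, the p21 inhibitor of cell cycle kinases, was at 10.30 in both 6 h channels and at 9.68 and 9.56 at 24 h. Its difference of -0.68 ± 0.07 had an adjusted p of 0.00466. Nfkbia, which encodes the inhibitor that holds NF-kappaB in the cytoplasm, went from 13.15 and 12.97 to 12.42 and 12.39 (-0.65 ± 0.09, adjusted p = 0.00956). In each of these called genes the groups did not overlap, as was so for 25.1% of all tested genes in this direction. Passing the test favours this, so it is no separate support.

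Tsc22d3, also called GILZ and induced directly by glucocorticoids in many cells, differed by -0.55 ± 0.11 (adjusted p = 0.0418), and its adjusted p was above 0.05 under 9 of the 13 alternatives. Sult1a1, a sulfotransferase, fell by 0.55, Angptl4, a secreted inhibitor of lipoprotein lipase, by 0.52, and Dusp1, a phosphatase that switches off MAP kinases, and Map3k6, a kinase upstream of them, by 0.45 each. Several classical targets did not pass. Fkbp5, a chaperone partner of the glucocorticoid receptor, was at -0.26 ± 0.13 (adjusted p = 0.282) and Klf9 at -0.28 ± 0.15. Per1, a clock gene that glucocorticoids also induce, was at -0.08 ± 0.25, with Cy3 channels at 11.95 and 12.08 and Cy5 channels at 11.50 and 11.20 at 6 h and 24 h. The receptor gene itself, Nr3c1, was at -0.08 ± 0.08.

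**Figure D2:**
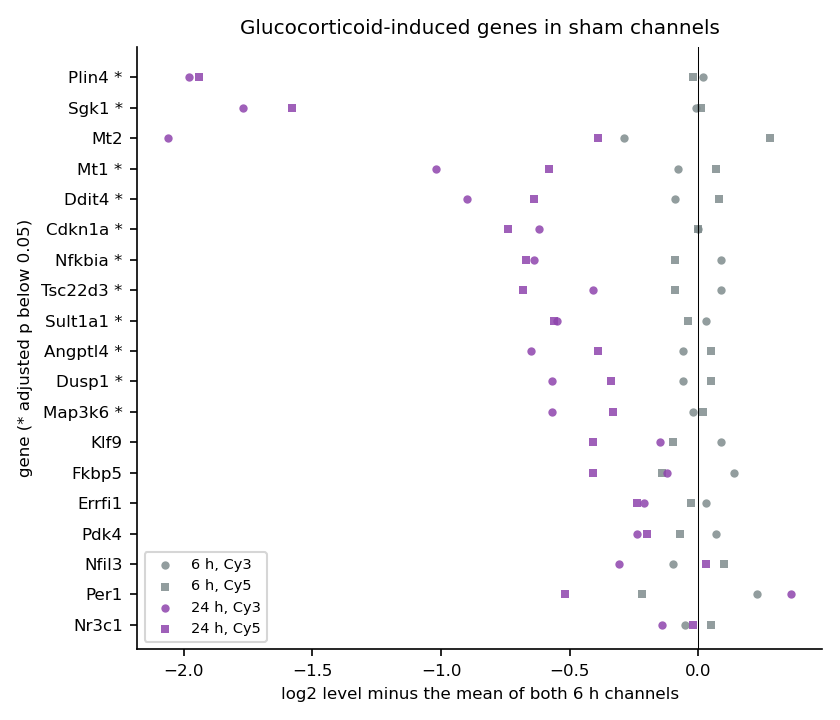
Each row is 1 of the 19 glucocorticoid-induced genes tested, and the x axis gives the log2 level of each sham channel minus the mean of both 6 h channels (circles Cy3, squares Cy5, grey 6 h, purple 24 h). At 24 h Plin4 and Sgk1 lie far to the left in both dyes, whereas the dyes of Mt2 and Per1 lie apart, and the 11 genes marked with an asterisk passed the test.

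Promoter sequence was read for the lists from a RefSeq table of assembly GRCm38.p6, which gives 250 bases before and 50 bases after each start. The core TGTTCT of the glucocorticoid receptor site was sought on both strands. It was present in 5 of the 27 promoters of the whole list, 18.5%, in 5 of the 18 promoters of the members that fell, 27.8%, and in 19.0% of all 32851 promoters of that length, and these 5 promoters belong to 3 of the 10 genes with an entry. The stretch of Sgk1 with the most matches is printed because this was the most strongly changed member with any. It covers chr10:21993640-21993739 of GRCm38.p6 on the plus strand and holds matches that begin 242, 189 and 180 bases upstream. The array does not tell which of the starts of Sgk1 was in use. Capitals mark TGTTCT or its reverse complement.
Sgk1: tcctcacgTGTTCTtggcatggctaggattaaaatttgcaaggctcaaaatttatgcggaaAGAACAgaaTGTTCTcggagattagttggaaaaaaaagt

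Immediate early genes were the second group that moved. Of 28 tested, 11 fell and 1 rose, against 1.82% of all genes called lower and 1.97% called higher, and the median difference was -0.18. Both 24 h channels lay below both 6 h channels in 17 of them, an order found in 25.1% of all genes. The genes that fell were Npas4, Junb, Fos, Arc, Ptgs2, Fosb, Btg2, Nr4a1, Dusp1, Ier2 and Egr3, and the gene that rose was Egr4. This count fell to 1 lower gene with either 6 h array left out and to 0 with the signals processed by the scanner software. Without normalisation between arrays the list's median was 0.01, where the median of all genes was 0.08.

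Junb, a subunit of the AP-1 transcription factor, showed the smallest p of the list. It read 14.67 and 14.70 at 6 h and 13.90 and 13.96 at 24 h, a difference of -0.75 ± 0.07 (adjusted p = 0.00243) that its other probe shared at -0.73. Arc, which encodes a protein of the postsynaptic density that is induced by synaptic activity, read 14.57 and 14.42 and then 13.86 and 13.71 (-0.71 ± 0.10, adjusted p = 0.0103). Npas4, a transcription factor induced by calcium entry in neurons, read 9.75 and 9.57 and then 9.06 and 8.51 (-0.87 ± 0.16, adjusted p = 0.0266). Fos, the partner of the JUN proteins in AP-1, read 10.57 and 10.77 and then 9.74 and 10.14 (-0.73 ± 0.14, adjusted p = 0.0323). In all of these genes the lowest 6 h channel was above the highest 24 h channel. The test favours this order in called genes, and 25.1% of all tested genes showed it, so it is no separate support.

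Fosb fell by 0.57 and Ptgs2, the inducible cyclooxygenase, by 0.64, though Ptgs2 did not pass with a dye term (adjusted p = 0.0879). Btg2, an antiproliferative factor, fell by 0.48 with 3 of 3 probes past the test, and Nr4a1, an orphan nuclear receptor, fell by 0.46. Ier2 and Egr3 fell by 0.36 and 0.35. Egr3 passed with 1 of its 2 probes while the other stood at -0.04, and for Ier2 neither probe passed when the adjustment ran over probes. Egr4, a zinc finger factor of the same family as Egr3, read 13.30 and 13.25 at 6 h and 13.63 and 13.67 at 24 h, a rise of 0.38 ± 0.08 (adjusted p = 0.0431). With a dye term its adjusted p was 0.0673. Egr1, a widely used marker of neuronal activity, was at 0.04 ± 0.08, Bdnf, a neurotrophin, at -0.22 ± 0.07 and Homer1, a synaptic scaffold, at -0.18 ± 0.07, and none of them passed.

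**Figure D3:**
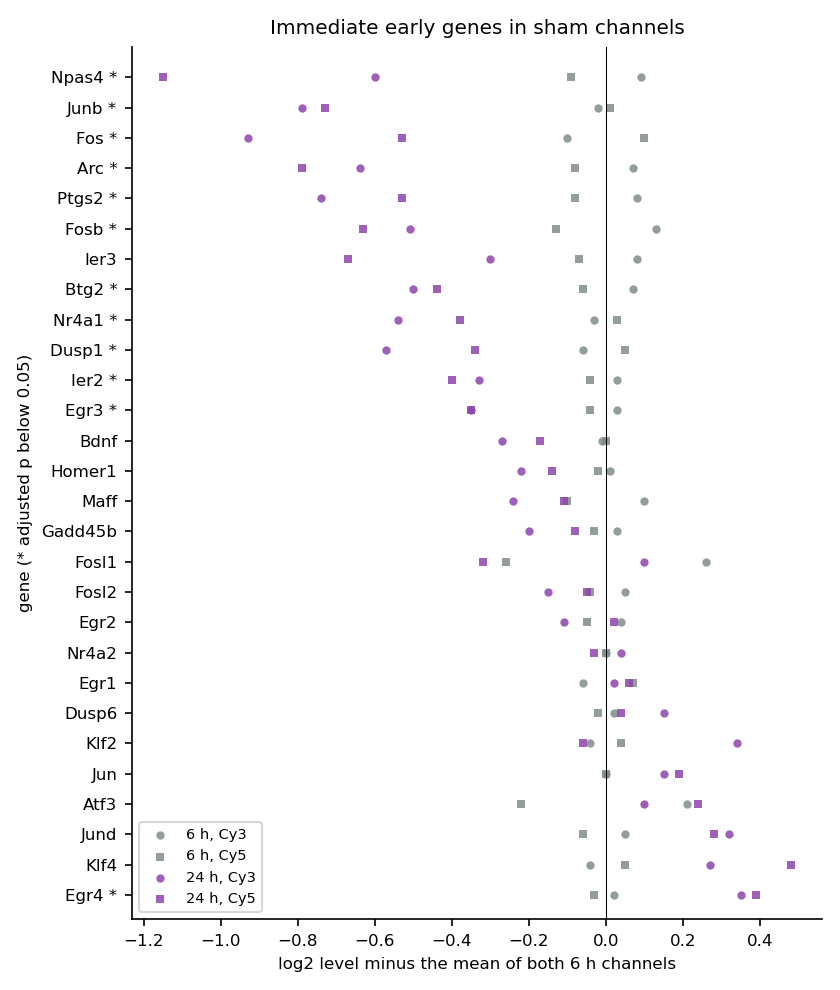
Each row is 1 of the 28 immediate early genes tested, and the x axis gives the log2 level of each sham channel minus the mean of both 6 h channels (circles Cy3, squares Cy5, grey 6 h, purple 24 h). The 24 h channels of Npas4, Junb, Fos and Arc lie to the left of the 6 h channels, those of Egr1 overlap them, and those of Egr4 lie to the right.

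The core TGACG of the cAMP response element was sought in the same promoter table on both strands. It was present in 8 of the 8 promoters of the immediate early genes that fell, in 22 of the 38 promoters of the whole list, 57.9%, and in 20.8% of all promoters. Arc, Ier2 and Egr3 are the members that fell and have no entry. The E-box CACGTG was present in 2 of these 8 promoters, or 25.0%, against 7.15% of all promoters. The letters alone do not show that a factor was bound. Stretches of Fos, Nr4a1 and Dusp1 are shown because each holds several matches within 100 bases and belongs to a gene that fell. Capitals mark TGACG or its reverse complement CGTCA, and in Dusp1 a match on each strand overlaps into 1 palindrome. The stretch of Fos lies at chr12:85473750-85473849 on the plus strand, that of Nr4a1 at chr15:101266726-101266825 on the plus strand and that of Dusp1 at chr17:26508573-26508672 on the minus strand, all in GRCm38.p6. Matches begin 129 and 66 bases before the start in Fos, 69 and 40 in Nr4a1, and 191, 143 and 140 in Dusp1.
Fos: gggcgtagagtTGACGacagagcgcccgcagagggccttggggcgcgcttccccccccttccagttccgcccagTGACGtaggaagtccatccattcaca
Nr4a1: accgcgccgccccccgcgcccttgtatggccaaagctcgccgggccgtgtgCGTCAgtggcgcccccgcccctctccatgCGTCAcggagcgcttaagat
Dusp1: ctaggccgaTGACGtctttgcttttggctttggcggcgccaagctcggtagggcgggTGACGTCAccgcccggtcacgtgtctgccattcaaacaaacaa

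The 15 lowest named genes held several outside these lists, some with roles in metabolism. Slc4a7, a sodium bicarbonate cotransporter, had the lowest value among them, at 13.41 and 14.34 at 6 h and 11.96 and 11.70 at 24 h. Its 6 h channels lay nearly 1 log2 unit apart, and the difference of -2.04 ± 0.45 passed narrowly (adjusted p = 0.0482). Depp1, a FOXO-responsive regulator of autophagy, read 9.21 and 9.17 and then 7.67 and 7.71 (-1.49 ± 0.12, adjusted p = 0.00171). Ch25h, the enzyme that makes 25-hydroxycholesterol, read 9.77 and 9.58 and then 8.38 and 8.26, which is 2.57-fold lower (-1.36 ± 0.10, adjusted p = 0.0016). Both genes were separated by over 1 log2 unit with both dyes close.

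Amd2, an S-adenosylmethionine decarboxylase of polyamine synthesis whose sequence is a near copy of Amd1, differed by -1.33 ± 0.09, and the probe may read both. Xdh, xanthine dehydrogenase of purine breakdown, differed by -1.04 ± 0.09, with 1 of its 2 probes past the test and the other at -0.39. Arrdc2, an alpha-arrestin, was at -1.08, Arl4d, a small GTPase, at -1.02, and Polr3e, a subunit of RNA polymerase III, at -1.00. The second probe of Arl4d stood at 0.16 and that of Polr3e at -0.11. Lgals3, a galectin of activated microglia and macrophages, read 8.89 and 9.03 and then 8.06 and 8.05 (-0.90 ± 0.09, adjusted p = 0.00314). Tmem252 and Lao1, an L-amino acid oxidase, fell by 0.90 and 0.89.

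None of the 15 highest named genes belonged to a list. Dbpht2, which encodes a putative DNA-binding protein, had the largest rise among them, from 8.50 and 8.70 at 6 h to 10.17 and 10.08 at 24 h. The rise of 1.52 ± 0.09 was 2.87-fold, with an adjusted p of 0.000528. Tmem40 read 9.13 and 9.06 and then 10.25 and 10.32 (1.20 ± 0.07, adjusted p = 0.000528), and its other probe rose by 0.85 and passed as well. Nell2, a secreted protein of neurons, read 12.45 and 12.55 and then 13.58 and 13.52 (1.05 ± 0.09, adjusted p = 0.00238). In these genes both 24 h channels lay above both 6 h channels, an order that the test favours and that 23.5% of all tested genes showed. Creb3l3, a membrane-bound transcription factor best known from liver, was at 1.24 ± 0.16, Duox2, a dual oxidase that was well above background on 1 of the 2 channels at 6 h, at 1.25 ± 0.11, and Syt6, a synaptotagmin, at 1.02 ± 0.10. Duox2 was thus tested only through its 24 h channels, where it is high. The size for Duox2 is uncertain, since the Duox2 log2 difference was 3.23 with the processed signals.

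Among the 15 highest genes 9 had several probes tested, and for 8 of these 1 probe alone passed. Dnmt3a, a de novo DNA methyltransferase, rose by 1.30 ± 0.10 on the probe that stands for it, while the lowest of its 3 probes stood at -0.03. Gbf1, an exchange factor of ARF proteins at the Golgi, rose by 1.11 on 1 probe and stood at 0.04 on the other. Gigyf2, a translational repressor, rose by 1.17 on 1 of 4 probes, and Fgfr1op2 by 1.09 with the other probe at -0.28. In Rian, a maternally expressed noncoding RNA, Nr2c2, a nuclear receptor, Ccdc186, a protein of dense core vesicles, and Zbtb7a, a zinc finger repressor, 1 of 2 probes passed as well, and Zbtb7a did not pass with a dye term (adjusted p = 0.155). The same held for 109 of the 136 higher genes with several probes, 80.1%, and for 87 of the 121 lower ones, 71.9%. The PMCAO channels differed by 1.28 for Dnmt3a, 0.97 for Gbf1, 1.28 for Gigyf2, 1.14 for Fgfr1op2, 0.84 for Ccdc186 and 1.23 for Zbtb7a on the same probes, and by -0.28 for Rian and 0.21 for Nr2c2. For such genes the value describes the probe and may not hold for the gene. Whether the transcripts that a probe reads or its spots on the arrays account for this was not tested.

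Some inflammatory genes changed in sham. Of 21 chemokines and cytokines tested, 2 rose, against 1.97% of all genes, and none fell. Ccl12, a chemokine that attracts monocytes, read 7.96 in both 6 h channels and 8.54 and 8.78 at 24 h (0.70 ± 0.11, adjusted p = 0.0189), and Il11, a cytokine of the interleukin 6 family, read 7.65 and 7.46 and then 8.15 and 8.25 (0.65 ± 0.10, adjusted p = 0.0148). Ccl2, the related monocyte chemokine, read 8.20 and 7.56 and then 8.81 and 8.94, and with its 6 h channels apart it did not pass (0.99 ± 0.24, adjusted p = 0.0588). None of 28 interferon-induced genes passed in limma, where Gbp3 had the smallest adjusted p at 0.0546, and 1 passed with a dye term. An unadjusted p below 0.05 in limma was reached by 4 of the 28, against 4008 of all 18938 genes tested. Of 17 acute phase and complement genes, Lrg1, a secreted glycoprotein of vessels and liver, fell by 0.57 and none rose. Of all genes 1.82% fell.

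Against 1.82% of all genes lower and 1.97% higher, 3 of 20 genes of reactive astrocytes fell and none rose. These were Cebpd, a transcription factor of acute inflammation, at -0.71 ± 0.11, Cd109, a surface protein that restrains TGF-beta signalling, at -0.47 ± 0.08, and Osmr, the oncostatin M receptor, at -0.39 ± 0.08, which did not pass with a dye term (adjusted p = 0.0955). The median of the list was 0.13 and 14 of its values were above 0. Gfap, the intermediate filament of astrocytes, was at 0.35 ± 0.09 (adjusted p = 0.0779). In the PMCAO channels of the same arrays 20 of the 20 genes of this list rose from 6 h to 24 h, against 10.7% of all genes, with a median of 1.19.

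Markers of neutrophils and monocytes were lower at 24 h in sum. Their summed linear level was 125% and 110% of the mean of the 4 sham channels at 6 h and 79.9% and 84.7% at 24 h. Such a sum is weighted to markers with high readings, here above all S100a9. Of 12 tested, S100a8 fell, against 1.82% of all genes, and the others did not pass, with a median of -0.25. S100a8, which forms calprotectin with S100a9 in these cells, read 8.48 and 8.03 at 6 h and 7.27 and 6.91 at 24 h (-1.17 ± 0.23, adjusted p = 0.0352). S100a9 read 10.79 and 10.74 and then 9.80 and 10.26 (-0.74 ± 0.19, adjusted p = 0.0776). Mmp9, a granule protease of neutrophils, was at -0.05 and Ccr2, the receptor of monocytes, at -0.11. The median of the list was 0.04 with the processed signals, so its sign depends on the normalisation, and in bulk tissue fewer cells of a type and less RNA per cell cannot be told apart. The part of these cells in the fall of Lgals3, Cebpd and the other genes of inflammation was not tested.

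A few genes of the vessel wall moved, in both directions. Of 14 endothelial and blood-brain barrier markers, 2 fell and 1 rose, against 1.82% and 1.97% of all genes, and the median was 0.02. With a dye term 2 fell and 4 rose. Mfsd2a, the transporter of docosahexaenoic acid at the barrier, read 13.61 and 13.56 at 6 h and 12.77 and 12.79 at 24 h (-0.80 ± 0.07, adjusted p = 0.00247), and it passed in all 12 alternatives that called any gene. Ly6c1, a surface protein of brain endothelium, read 13.99 and 14.01 and then 13.33 and 13.37 (-0.64 ± 0.07, adjusted p = 0.00386), with 2 of 2 probes past the test. Slc38a5, an amino acid transporter for glutamine, read 10.25 and 10.40 and then 11.08 and 11.15 (0.79 ± 0.08, adjusted p = 0.00347). Cldn5, the tight junction protein, was at -0.15 ± 0.14 and Pecam1, a junction protein of endothelium, at 0.18 ± 0.08, and neither passed. The summed level of the 14 markers was 109% and 105% at 6 h and 96.4% and 90% at 24 h. This linear sum is weighted to markers with high readings, such as Ly6c1 and Mfsd2a. Of the 14 differences 7 were above 0 and 7 below, so the sum does not show a fall of the markers as a group.

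Few genes of pericytes, meninges and matrix passed, and those that did rose, where 1.97% of all genes rose. Of 16 pericyte and meningeal markers, Aldh1a2, an enzyme of retinoic acid synthesis in the meninges, rose by 0.50 ± 0.10 and Col1a1, fibrillar collagen, by 0.43 ± 0.09, the latter with 1 of 2 probes. Of 27 matrix genes, Adamts4, a proteoglycan-cleaving protease, rose by 0.42 ± 0.07 beside Col1a1, and none fell. Serpinh1, the collagen chaperone HSP47, was the 1 riser among 17 heat shock and cold-induced genes, at 0.43 ± 0.08. These called changes were all below 1.5-fold, and each called gene read higher in both 24 h channels than in either 6 h channel. That order is favoured by the test and was found in 23.5% of all tested genes. The lists as a whole did not rise, with medians of 0.04 for pericytes and meninges and 0.06 for matrix. Of their values 7 of 16 and 11 of 27 were below 0. The summed level of the pericyte and meningeal markers was 97.8% and 110% at 6 h and 88.4% and 104% at 24 h.

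Some protein folding genes of the endoplasmic reticulum rose. Of 27 genes of the unfolded protein and integrated stress responses, 4 rose, against 1.97% of all genes, and none fell, and the median was -0.02. Sdf2l1, a chaperone component of the endoplasmic reticulum, read 10.37 and 10.35 and then 10.89 and 10.99 (0.58 ± 0.08, adjusted p = 0.00914). Hyou1, a large chaperone of the same compartment, was at 0.44 ± 0.07, Creld2, a protein induced by stress of the reticulum, at 0.33 ± 0.07 and Slc7a11, the cystine and glutamate exchanger, at 0.45 ± 0.08. Slc7a11 passed with 2 of 4 probes, and the lowest of them stood at -0.33. Hspa5, the main chaperone of the compartment, was at 0.19 ± 0.09, and Ddit3 and Atf4, transcription factors of the stress response, were at -0.02 and -0.04. With either 6 h array left out none of the 4 passed.

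Oxidative stress and metal genes split, with 2 of 20 higher and 2 lower, against 1.97% and 1.82% of all genes. Hmox1, the heme-degrading heme oxygenase 1, read 9.44 in both 6 h channels and 9.98 and 10.07 at 24 h (0.59 ± 0.07, adjusted p = 0.00735). It rose with Slc7a11, whereas Mt1 and Txnip, an inhibitor of thioredoxin that responds to glucose, fell, Txnip by 0.52 with 1 of 2 probes. The remaining 16 of 20 members did not pass. Among 27 genes of p53 and the cell cycle, Mcm6, a subunit of the replication helicase, rose by 0.39 and Cdkn1a and Trp53inp1, a p53 target of autophagy, fell, the latter by 0.35. Of 27 hypoxia and glycolysis genes 1 passed, namely Ddit4, which is near the background of 1.82% lower.

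Against 1.82% of all genes, 3 of 19 lipid genes of the fasting response fell, of which Plin4 and Angptl4 are glucocorticoid-induced as well. The third was Ppara, the nuclear receptor of fatty acid oxidation, at 8.54 and 8.67 and then at 8.04 and 8.23 (-0.47 ± 0.09, adjusted p = 0.0326). Cpt1a, the enzyme of fatty acid import into mitochondria, was at -0.03 and did not pass. In the cholesterol pathway, Idi1, isopentenyl diphosphate isomerase, fell by 0.47 with 2 of 2 probes, and Lss, lanosterol synthase, by 0.37 with 1 of 3 probes. The other 20 of 22 genes of the pathway did not pass. None of 40 ribosomal protein genes or 39 genes of the respiratory chain passed in this fit, although 37 of the 40 ribosomal values were below 0 with a median of -0.09. In limma 8 and 4 genes of these lists were at an unadjusted p below 0.05, against 4008 of all 18938 genes tested. With a dye term 1 and 0 genes of these lists passed. The smallest adjusted p of the respiratory chain was 0.0874, for Ndufa10.

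Circadian clock genes showed 1 called change among 23 tested, near the background of 1.97%. Rora, the nuclear receptor that activates Arntl, read 11.17 in both 6 h channels and 11.57 and 11.53 at 24 h (0.38 ± 0.07, adjusted p = 0.0338), with 2 of 3 probes past the test. Of the activators, Arntl, which encodes BMAL1, was at 0.03 ± 0.08, Clock at -0.14 ± 0.08 and Npas2 at 0.06 ± 0.09. Of the repressors, Per2 was at 0.28 ± 0.13, Per3 at 0.08 ± 0.12, Cry1 at -0.27 ± 0.15 and Cry2 at 0.18 ± 0.11, beside Per1 above. Ciart, another repressor, was at -0.23 ± 0.13. The REV-ERB receptors that repress Arntl, Nr1d1 and Nr1d2, were at 0.10 ± 0.09 and 0.04 ± 0.10. None of these passed.

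The output factors of the clock were likewise close to 0. Dbp, whose transcript cycles strongly in many tissues, read 14.70 and 14.59 at 6 h and 14.91 and 14.72 at 24 h, with each 24 h channel above its 6 h partner and the groups nearly touching (0.17 ± 0.09, adjusted p = 0.316). Tef was at 0.01, Hlf at 0.19 and Nfil3, which opposes them at the D-box, at -0.15. Bhlhe40 and Bhlhe41, E-box repressors, were at 0.15 and -0.14, and Rorb at 0.36. Usp2, a deubiquitinase with a cycling transcript, read 11.35 and 11.36 and then 11.03 and 10.90 and came closest to the threshold among the members that did not pass (-0.39 ± 0.09, adjusted p = 0.0558). With a dye term Usp2 passed, at an adjusted p of 0.0376. The kinases Csnk1d and Csnk1e were at 0.19 and -0.29. A gene that did not pass may still have changed, since the standard errors of the list, 0.07 to 0.25, allow small shifts. In promoters of the list, the E-box CACGTG was present in 6 of 28, 21.4%, against 7.15% of all promoters, the D-box TTANNTAA in 10.7% against 6.0%, and the REV-ERB and ROR core AGGTCA in 17.9% against 16.3%.

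Peptide and pituitary genes changed singly. Of 22 neuropeptide and hypothalamic genes Pdyn, the precursor of dynorphins, rose by 0.34 ± 0.07, against 1.97% of all genes, and none fell. Oxt and Avp, the hormones of the posterior pituitary, were at -0.06 and 0.05. Of 6 pituitary genes tested, Cga, the alpha subunit common to the glycoprotein hormones, read 7.52 and 7.51 at 6 h and 6.57 and 6.64 at 24 h (-0.91 ± 0.07, adjusted p = 0.0016), where 1 of the 2 channels was well above background at 24 h. Cga was thus tested only through its 6 h channels, where it is high. Its size is therefore uncertain, and with the processed signals the Cga log2 difference was -3.09. Prl, prolactin, was not well above background at 6 h, with readings of 6.47 and 6.44, and stood at 7.12 and 6.96 at 24 h. It passed, but it was tested only because it was well above background at 24 h, so passing is no support for a rise. Its size is uncertain as well, at 0.59 in this fit and 0.19 with no normalisation between arrays. With the processed signals the Prl log2 difference was 3.47. Pomc, the corticotropin precursor, was at -0.14 ± 0.08 and Tshb at -0.18 ± 0.14.

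Choroid plexus markers were lower where they passed. Of 17 tested, 2 fell and none rose, against 1.82% and 1.97% of all genes, and the median was -0.12. In 12 of the 17 both 24 h channels lay below both 6 h channels, an order that 25.1% of all genes showed. Ttr, transthyretin, which carries thyroid hormone in the cerebrospinal fluid, read 12.61 and 12.75 and then 12.04 and 12.22 (-0.55 ± 0.09, adjusted p = 0.0236). Prlr, the prolactin receptor, differed by -0.62 ± 0.10 on its brightest probe and by -0.10 on the probe that moved least. The summed level of the list was 103% and 108% at 6 h and 91.9% and 97.5% at 24 h. Tekt4, a protein of motile cilia and the 1 of 9 ependymal markers that passed, read 10.05 and 9.99 and then 9.10 and 9.23 (-0.85 ± 0.08, adjusted p = 0.00314).

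Few markers of the main brain cells and regions passed. None of 12 neuronal, 10 oligodendrocyte, 10 precursor, 10 microglial, 5 lymphocyte, 15 cortical and hippocampal or 8 olfactory markers passed in limma, where the smallest adjusted p was 0.0564, for the microglial receptor Csf1r. In that order 0, 2, 2, 2, 0, 7 and 0 of them were at an unadjusted p below 0.05, against 4008 of all 18938 genes tested. With a dye term 1 each of the precursor, microglial and cortical markers passed. Among 10 astrocyte markers Gjb6, the gap junction protein connexin 30, fell by 0.52 with 1 of 2 probes. Region markers that rose were Rxrg, a retinoid receptor of striatum, by 0.44 ± 0.08, Lef1, a Wnt factor of thalamus, by 0.41 ± 0.09, Rora, in the thalamic list as well, and Pcp2, a Purkinje cell protein, by 0.37 ± 0.08. Alas2, the heme synthesis enzyme of red blood cell precursors, rose by 0.37 ± 0.07. Summed levels were 95% and 101% at 6 h and 98.2% and 106% at 24 h for neurons, 96.8% and 104% and then 95.6% and 104% for astrocytes, and 94.2% and 102% and then 98.8% and 105% for microglia. For red blood cells they were 90.8% and 97.9% and then 105% and 106%, and for striatum 93.4% and 94.2% and then 105% and 108%.

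The change in sham was set against the change in PMCAO, whose channels lie on the same arrays and spots. In PMCAO 2026 genes rose, 10.7%, and 1810 fell, 9.56%. Of the 718 genes called in sham, 348 were called the same way in PMCAO, which is 48.5% of the sham calls and 9.07% of the PMCAO calls. The difference between the changes passed for 111 of the 718. Over all genes, sham lay below PMCAO in 1.77% and above it in 0.734%. These counts depended strongly on the model, since 474 genes differed in this fit and 7339 with a dye term. In the glucocorticoid list 8 of 19 sham changes lay below the PMCAO change and none above, and in PMCAO the median of the list was 0.15. Among immediate early genes 10 of 28 lay above and 4 below, where the PMCAO median was -0.83 and the sham median -0.18.

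Several genes of sham moved against PMCAO. Lgals3 fell in sham, by 0.90, and rose by 1.81 in PMCAO (difference -2.71, adjusted p = 0.000222). Ch25h was at -1.36 and 0.70, S100a8 at -1.17 and 2.18, Cebpd at -0.71 and 0.91, and Lrg1 at -0.57 and 0.85. In these genes sham RNA fell while RNA of the occluded mice rose, so a ratio of PMCAO over sham at 24 h against 6 h holds both movements. Npas4 fell in both, by 0.87 in sham and by 3.07 in PMCAO, and the sham fall was the smaller one (adjusted p = 0.00547). Amd2, Dnmt3a and Tekt4 moved alike in both, at -1.33 and -1.21, 1.30 and 1.28, and -0.85 and -0.87, and for none of them did the difference pass.

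**Figure D4:**
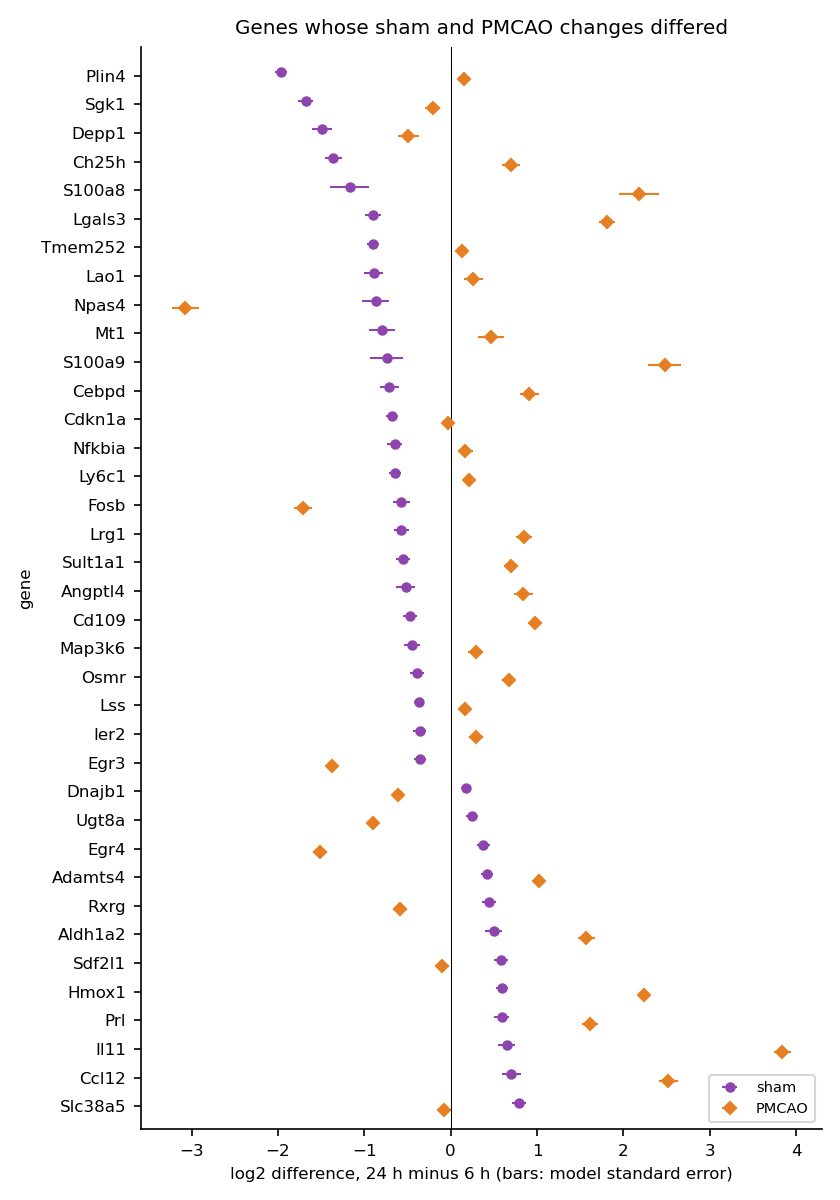
Each row is a named or list gene whose sham change differed from its PMCAO change, with the log2 difference between 24 h and 6 h on the x axis for sham (purple circles) and PMCAO (orange diamonds) and bars for the model's standard error. Plin4 and Sgk1 are low in sham and near 0 in PMCAO, Lgals3 and S100a8 lie on opposite sides of 0, and Npas4, Fosb and Egr3 are lower in PMCAO.

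The number of genes called changed with the model and the normalisation more than the direction of single genes did. In all 13 alternatives to the fit described here, none of the 117 genes named by rule that were called changed sign. Several of these alternatives could not change a sign. The dye term, the fits of the sham channels alone and both filters on probes leave each gene's difference as it was. A set of 27 genes, 11 higher and 16 lower, passed in the fit and in all 12 alternatives that called any gene. It includes Plin4, Sgk1, Ch25h, Amd2, Xdh, Polr3e, Lgals3, Tekt4 and Mfsd2a among the lower genes and Dbpht2, Dnmt3a, Tmem40, Gbf1, Nell2 and Ccdc186 among the higher ones. Being in this set does not show that the probes of a gene agree. The other probe of Tmem40 passed as well, whereas other probes of Dnmt3a, Gbf1, Ccdc186, Polr3e and Xdh did not.

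**Figure D5:**
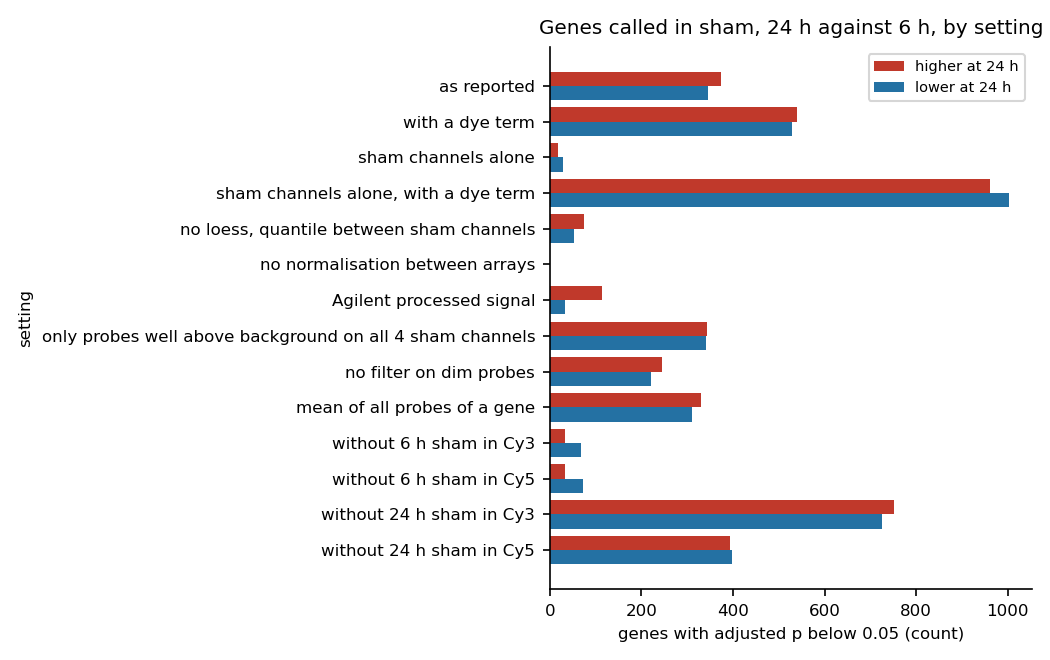
Bars give the number of genes with an adjusted p below 0.05 (x axis, from 0) that were higher (red) or lower (blue) at 24 h in sham under each setting. The fit reported here called 373 and 345, a dye term raised this to 539 and 529, and the sham channels alone called 19 and 28.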

How the data were processed

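The deposited tables are scanner output with an intensity per spot and channel, before and after processing by Agilent Feature Extraction 9.5.3.1, which the submitters' processing notes name. The file headers place probes on mm7. In limma 3.58.1 (R 4.3.3), the local background was removed from each mean signal by normexp with an offset of 50, followed by loess within arrays, with control spots at weight 0, and Aquantile between arrays. Flagged outlier spots were dropped, saturated ones were not. Each gene is represented by its brightest probe over the sham channels, after repeated spots were averaged. Genes well above background on both sham channels of at least 1 time were tested, 18938 of 27670 names, and 5 genes with a flagged spot were left out. Of 41174 probes, 22951 matched a RefSeq table of GRCm38.p6 by accession, 6659 by current symbol and 3109 by a former one, and 8455 keep the array design's name.

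A separate-channel model of all 8 channels in 4 groups gave the sham difference, with an intraspot correlation of -0.42 and 4 residual and 4.3 prior degrees of freedom. Where 1 array was left out, that correlation was held. Replicate numbers mark the dye of the sham channel. Where a group was well above background on neither channel, the size of the difference is called uncertain. Genes were named by rule: the 15 highest and 15 lowest called differences that went 1 way in both dyes, without clone names, the 2 members of each of 36 lists with the smallest p, and every clock gene. A few genes that the rule or the lists hold are not reported here. Other list members were chosen after their values were seen, and lists and members were chosen with earlier results of these data known. On simulated data of 18938 genes for this comparison, 62% of 1.5-fold and 96% of 2-fold changes were recovered, and 0% of 1.25-fold ones, with 3 unchanged genes called. The simulated noise and its intraspot correlation of 0.745 came from the fit with a dye term. Changed genes were drawn only from mean sham levels above 8. Since this setting differs from the reported fit, its recovery and its 3 false calls do not carry over to the genes called here. The number of arrays limits the precision of every value. The deposited series table was not used here, as it holds ratios of the channels only.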

Additional observations from a re-analysis of the deposited data

Results flagged for a closer look

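The change between 24 h and 6 h differed between sham and PMCAO, by limma's test of the difference itself, in 37 genes that are named by rule or called within a list. All values here are the sham change minus the PMCAO change on the log2 scale, and the channels compared lie on the same arrays. The sham change was the lower one for Plin4 (-2.12), Sgk1 (-1.47), Cdkn1a (-0.65), Nfkbia (-0.83), Mt1 (-1.27), Sult1a1 (-1.25), Angptl4 (-1.35) and Map3k6 (-0.75) of the glucocorticoid-induced genes. It was also lower for genes of inflammation and reactive glia, namely S100a8 (-3.35), S100a9 (-3.22), Il11 (-3.19), Lgals3 (-2.71), Ch25h (-2.06), Ccl12 (-1.83), Hmox1 (-1.65), Cebpd (-1.63), Cd109 (-1.45), Lrg1 (-1.42) and Osmr (-1.06). The vessel, matrix and pituitary genes Aldh1a2 (-1.07), Prl (-1.02), Ly6c1 (-0.85) and Adamts4 (-0.60) followed the same direction, where the value for Prl is uncertain because Prl was not well above background in sham at 6 h, as did Lao1 (-1.14), Tmem252 (-1.03), Depp1 (-1.00), Ier2 (-0.66) and Lss (-0.53).

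The sham change was the higher one for the activity genes Npas4 (2.20), Egr4 (1.89), Fosb (1.15) and Egr3 (1.03). The same held for Ugt8a (1.15), a myelin lipid enzyme, Rxrg (1.03), Slc38a5 (0.87), Dnajb1 (0.79), a heat shock cochaperone, and Sdf2l1 (0.68). Of these, Dnajb1, Ugt8a and S100a9 did not pass in sham itself.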

How the results depend on the processing

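Replicates of the same number at 6 h and 24 h share the dye of the sham channel, and over genes the Cy5 minus Cy3 differences of the times correlated at 0.457. With this replicate number as a block (a dye term), 539 genes were higher and 529 lower, 633 of the 718 calls were kept, and 7339 sham and PMCAO changes differed in place of 474. In the sham channels alone the counts were 19 and 28 without the block and 961 and 1003 with it. With no loess and quantile normalisation between sham channels they were 75 and 52. The processed signals gave 113 and 33, so that 77.4% of calls were higher in place of 51.9%. With no normalisation between arrays limma called 0 and 0, with 1355 genes at an unadjusted p below 0.05, and 301 differences from PMCAO. Without a filter on dim probes the counts were 246 and 221. Leaving out 1 array, which leaves 1 dye at that time and assumes that the lone sham channel varies like the other groups, gave 33 to 752 higher genes, 69 to 725 lower genes and 42 to 906 differences from PMCAO. Without the 24 h array with sham in Cy3 they were 752, 725 and 906. Restricting to probes well above background on all 4 sham channels or averaging a gene's probes kept every count within 1.5 times. Of the named genes, 75 of 117 kept their side of the threshold in the sham channels alone, 52 with no normalisation between arrays and 108 with the dye term. None that was called changed sign, which the dye term and the sham channels alone could not bring about. Of all 718 calls, 707 kept their direction with no normalisation between arrays. The cause of these shifts was not tested.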
